A study of Oryza sativa with 6 samples.

Results

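A set of 8 genes of rice pattern-triggered immunity was followed in leaves of a diploid rice line and of the tetraploid made from it: CEBiP (LOC_Os03g04110), CERK1 (LOC_Os08g42580) and FLS2 (LOC_Os04g52780) as receptors, RBOHB (LOC_Os01g25820) and RAC1 (LOC_Os01g12900) as the oxidase and its GTPase, and MKK4 (LOC_Os02g54600), MPK3 (LOC_Os03g17700, also called MAPK5) and MPK6 (LOC_Os06g06090) as the kinase cascade. They are 8 of the 55986 gene models in the count table and were chosen by identifier. The files pair no identifier with a name, so the names are those that define the gene set. A RefSeq table for rice lists a gene of the same symbol or synonym on the chromosome of the identifier for 5 of the 8. For CERK1, RAC1 and MPK3 of these, it also gives the name to a gene on another chromosome. FLS2 and MKK4 are not listed there under these symbols. For MPK6 the table gives that symbol to a gene on chromosome 10, so the MPK6 described here is the one on chromosome 6.

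The diploid was Balilla-2x, a japonica line (Oryza sativa) with 24 chromosomes, and the tetraploid was Balilla-4x, an artificial doubling of that line with 48. Leaves came from 4-week-old plants grown in a Shanghai paddy field, with their treatment labelled normal, and gave 3 libraries per line. The labels name no elicitor or pathogen, and they do not say whether the field-grown leaves carried microbes. The labels do not say whether the libraries of a line came from separate plants, and p-values therefore measure the spread between libraries, which may be technical. Whether the tetraploid is 1 plant lineage or several is not given in the labels, and the leaf label was not checked against marker genes, since the files name none.

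In plants, receptors on the cell surface bind fragments of microbes and start a rapid response inside the cell. In rice, CEBiP binds chitin fragments of fungal walls through LysM domains and signals together with the receptor kinase CERK1, and FLS2 is the receptor kinase for bacterial flagellin. Activated receptors switch on the small GTPase RAC1, which binds the NADPH oxidase RBOHB, the enzyme that makes superoxide outside the cell. They also start a kinase relay in which MKK4 phosphorylates MPK3 and MPK6. In rice, MKK4 and MPK6 are also known as genes of grain size, and grain yield is part of the subject that the series title names.

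Transcripts of the chitin receptor CEBiP and of the oxidase were higher in the tetraploid, while those of all 3 kinases of the cascade were lower. RBOHB rose 2.59-fold and CEBiP 1.62-fold, and MPK3 fell to 0.367, MKK4 to 0.548 and MPK6 to 0.696 of their diploid levels. CERK1 did not pass the test. FLS2 and RAC1 were also higher in the tetraploid, but from a few counts per library, and both calls were lost when certain single libraries were left out. Both entered the test through their tetraploid counts alone.

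Library totals ran from 16738447 to 18106962 counts. Levels are CPM, counts relative to the TMM-scaled library size, or the deposited FPKM, which also divides by gene length and is used wherever one gene is set against another. Both are relative to the RNA of the library, so RNA per cell was not measured. A difference in the share of a cell type cannot be told apart from a difference per cell. All levels here are of transcripts, and protein amount, phosphorylation and enzyme activity were not measured. A gene was called when its adjusted p was under 0.05 in edgeR's quasi-likelihood test over all 20976 tested genes. All 8 genes were tested. FLS2 reached the minimum of 10 counts (scaled to the median library) in 0 of 3 diploid libraries and RAC1 in 1 of 3, so these genes entered the test through the tetraploid alone.

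Of the 8 genes 7 were called, 4 higher and 3 lower in Balilla-4x. Over all tested genes 26.1% were called, 12.4% higher and 13.7% lower. That balance turned with the scaling, since the higher genes made up 47.4% of all calls under TMM but 57.3% under library totals. The 5481 calls fell to 3029 without Balilla-4x replicate 2, to 3269 without Balilla-2x replicate 3 and to 3306 without Balilla-4x replicate 3. They rose to 6600 without Balilla-4x replicate 1. Among the 6 genes that reached the count minimum in every library, 5 were called, 2 higher and 3 lower. At least 2-fold changes were called for 4 of the 8 (RBOHB, FLS2 and RAC1 higher, MPK3 lower) against 11.7% of all tested genes, and for 2 of the 6 well-read genes (RBOHB and MPK3). The libraries of the lines did not overlap in 7 of the 8 and in 5 of the 6 well-read genes, against 44.3% of all tested genes. FLS2 and RAC1 passed the count minimum through the line in which they are high, so their part in these counts supports nothing. The median log2 fold change was 0.38 over the 8 genes and -0.24 over the 6 well-read ones, beside 0.01 over all tested genes, so the median has no common direction to describe. The members were listed with earlier results of these data known, and these counts carry no test of their own.

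**Figure D1:**
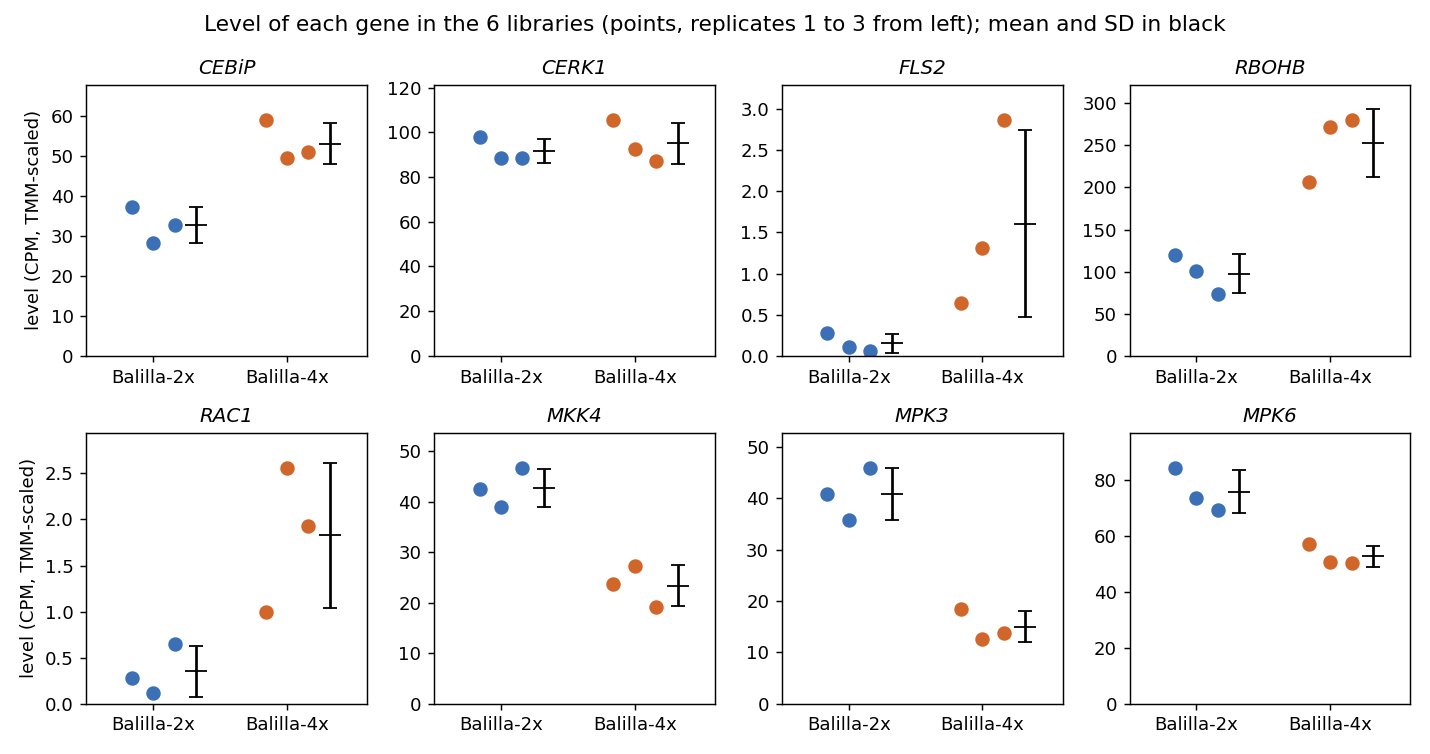
Level of each of the 8 genes in CPM (vertical axes, each from 0) in the 3 Balilla-2x libraries (blue) and the 3 Balilla-4x libraries (orange), with the mean and SD of each line in black. The lines are separated without overlap in every panel but that of CERK1, upward in CEBiP, FLS2, RBOHB and RAC1 and downward in MKK4, MPK3 and MPK6.

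Among the receptors, CEBiP carried the clearer difference. It was read at 37.4, 28.2 and 32.7 CPM in replicates 1 to 3 of Balilla-2x, and at 59.0, 49.5 and 50.9 CPM in those of Balilla-4x. Every tetraploid library lay above every diploid library. The log2 fold change was 0.70 ± 0.13 (SE, edgeR adjusted p = 0.00541), or 1.62-fold with a 95% interval of 1.33 to 1.98.

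CERK1, which supplies the kinase domain that CEBiP lacks, showed overlapping lines. Its levels were 97.7, 88.3 and 88.7 CPM in the diploid libraries and 105, 92.3 and 87.3 CPM in the tetraploid ones. The lowest and the highest of the 6 values both belonged to Balilla-4x. The fold was 1.04, with a 95% interval of 0.883 to 1.22 (edgeR adjusted p = 0.733), so changes of up to about that size in either direction are not distinguished here. The log2 fold change was 0.05, and it turned to -0.030 without Balilla-4x replicate 1, also not called.

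Within each library, CEBiP was set against CERK1 on the FPKM scale. The ratio of CEBiP to CERK1 was 0.624, 0.521 and 0.602 in the diploid libraries and 0.913, 0.875 and 0.952 in the tetraploid ones. The transcript of the ligand-binding receptor thus stood closer to that of its partner in every Balilla-4x library than in any Balilla-2x library. The log2 ratio differed by 0.65 between the lines, with means of -0.78 ± 0.14 and -0.13 ± 0.06 (SD, 3 libraries each). An exact two-sided permutation test of the 6 libraries gave p = 0.1, its floor in a design of this size, and p = 0.133 after Benjamini-Hochberg adjustment over the 4 ratios tested, so the difference did not pass the threshold.

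FLS2 was hardly read in either line. The diploid libraries held 5, 2 and 1 counts of it and the tetraploid libraries 11, 23 and 49. The groups do not overlap, but the tetraploid libraries alone ran from 11 to 49 counts, and the mean FPKM was 0.0367 ± 0.0281 in Balilla-2x and 0.402 ± 0.279 in Balilla-4x (SD, n = 3 per line). At 83 counts against 8, the ratio of the summed counts was 10.4 with an exact 95% interval of 5.06 to 24.99, which covers counting error only. The fitted log2 fold change was 3.33 ± 0.75 (SE, edgeR adjusted p = 0.0133). FLS2 entered the test through the tetraploid alone, so this p-value is no independent support for the rise. Without Balilla-2x replicate 3 the adjusted p was 0.0549 (edgeR), and without Balilla-4x replicate 3 it was 0.0516 at a fold of 6.15. Without Balilla-2x replicate 1 the fold was 17.1, so its size rests on single libraries.

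Relative to CERK1, the other receptor kinase of the set, the FLS2 level was lower by 245-fold, 106-fold and 45.8-fold in the Balilla-4x libraries. In the Balilla-2x libraries it was lower by 517-fold, 1171-fold and 2244-fold. The difference in log2 ratio was 3.38 between the lines, with means of -10.1 ± 1.06 in Balilla-2x and -6.73 ± 1.21 in Balilla-4x (SD, 3 libraries each). Exact permutation gave its floor of p = 0.1 (adjusted p = 0.133), so that test cannot decide here either. These ratios rest on 5, 2 and 1 diploid counts, and with 0.1 added to each FPKM the difference was 1.64. The flagellin receptor was therefore a minor transcript beside CERK1 in both lines.

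RBOHB was the gene of the set with the highest level in the tetraploid and the larger change among the well-read genes that rose. Its levels were 119, 100.4 and 73.2 CPM in the diploid libraries and 206, 272 and 280 CPM in the tetraploid ones. Both lines varied, from 73.2 to 119 CPM in the diploid and from 206 to 280 CPM in the tetraploid, and the gap between them was wider than either range. The log2 fold change was 1.37 ± 0.19 (SE, edgeR adjusted p = 0.00159), or 2.59-fold with a 95% interval of 1.92 to 3.49.

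RAC1, the GTPase that acts on this oxidase, was near the limit of reading. It had 5, 2 and 11 counts in the diploid libraries and 17, 45 and 33 in the tetraploid ones. The highest diploid library and the lowest tetraploid one, at 0.652 and 0.996 CPM, were close. The sums of 95 and 18 counts gave a ratio of 5.31 with an exact 95% interval of 3.19 to 9.35 for counting error. The fitted log2 fold change was 2.37 ± 0.61 (SE, edgeR adjusted p = 0.0233). RAC1 too entered the test through the tetraploid alone, and its p-value is likewise no independent support.

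The RAC1 call depended on which libraries were used. Its adjusted p (edgeR) rose to 0.0736 without Balilla-2x replicate 1 and to 0.0663 without Balilla-2x replicate 2. It rose to 0.0923 without Balilla-4x replicate 2 and to 0.0689 without Balilla-4x replicate 3 (edgeR). In that order the folds were 4.73, 3.86, 4.19 and 5.04, and each fit had a library less to test with. Without Balilla-2x replicate 3, which held 11 of the 18 diploid counts, the call held and the fold was 8.89 in place of 5.18. The excess of RBOHB over RAC1 per length was 199-fold, 420-fold and 53.1-fold in the diploid libraries and 97.7-fold, 50.3-fold and 68.7-fold in the tetraploid ones. These ranges overlap, and the difference in log2 ratio of -1.24 was not distinguished from the spread (exact permutation p = 0.3, adjusted 0.3, n = 3 per line). That difference moved to -0.56 when Balilla-2x replicate 2 was left out, to -2.05 when Balilla-2x replicate 3 was left out, and to -0.61 with 0.1 added to each FPKM.

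**Figure D2:**
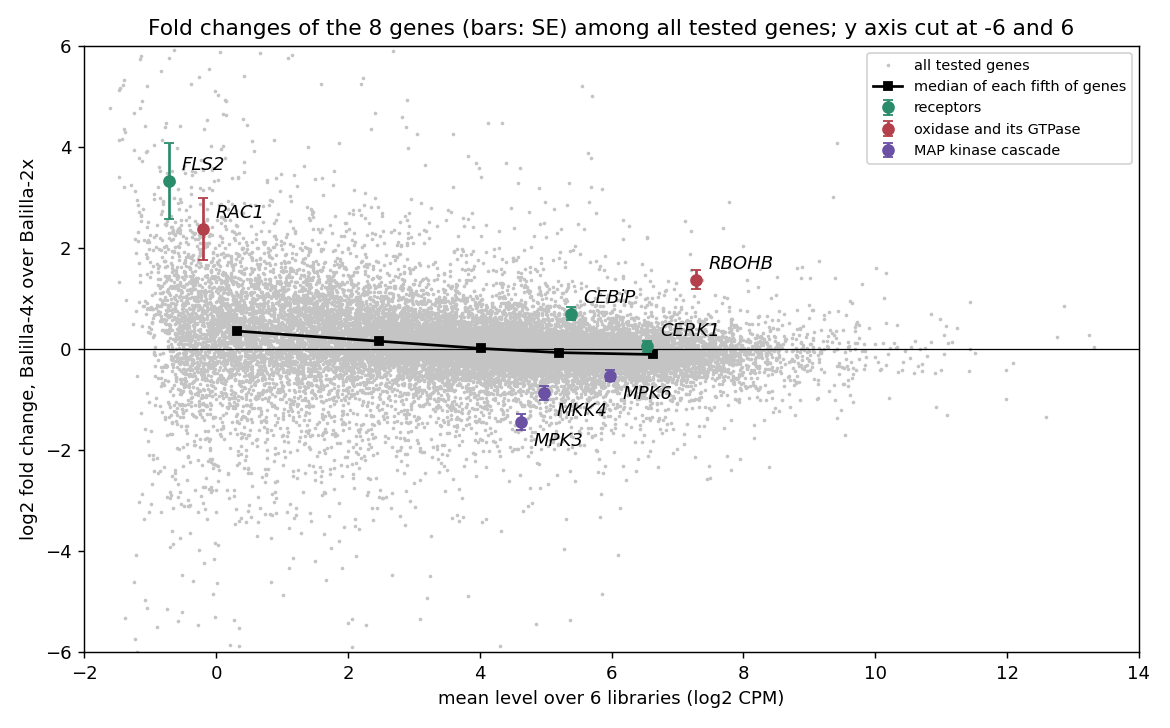
Log2 fold change of Balilla-4x over Balilla-2x (vertical axis) against the mean level over the 6 libraries in log2 CPM (horizontal axis), with all tested genes in grey, the 8 genes in colour with their SE, and the median of each of 5 classes of genes by level as black squares. RBOHB and CEBiP lie above and MPK3 and MKK4 below most genes at their level. MPK6 lies less far out, with 18.3% of its class changing as much in either direction. CERK1 lies within the bulk, and FLS2 and RAC1 lie at the low end, where fold changes scatter widely.

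All 3 kinases of the cascade fell, and MPK3 fell the furthest. This MAP kinase, known in rice for roles in defence and in tolerance of abiotic stress, was read at 40.9, 35.8 and 45.9 CPM in the Balilla-2x replicates and at 18.5, 12.7 and 13.8 CPM in those of Balilla-4x. The highest tetraploid library held less than the lowest diploid library. The log2 fold change was -1.45 ± 0.16 (SE, edgeR adjusted p = 0.000625), which leaves 0.367 of the diploid level, with a 95% interval of 0.284 to 0.475.

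MKK4, the kinase kinase placed upstream of both MAP kinases, had 42.5, 39.0 and 46.7 CPM in the diploid libraries and 23.7, 27.3 and 19.1 CPM in the tetraploid libraries. The lines were again apart in every library. Its log2 fold change was -0.87 ± 0.14 (SE, edgeR adjusted p = 0.00352), or 0.548 of the diploid level, with an interval of 0.438 to 0.686.

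MPK6 had the smallest called change of the set. It was read at 84.2, 73.5 and 69.3 CPM in the diploid and at 57.1, 50.6 and 50.2 CPM in the tetraploid. The gap between the lowest diploid and the highest tetraploid library was narrower than for MPK3, though none overlapped. The log2 fold change was -0.52 ± 0.11 (SE, edgeR adjusted p = 0.00845), or 0.696 of the diploid level, with an interval of 0.589 to 0.822. Leaving out Balilla-4x replicate 2 gave the weakest call, at an adjusted p of 0.0487 (edgeR).

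The 2 MAP kinases at the end of the cascade were also compared with each other. Per length, MPK3 stood at 0.737, 0.740 and 1.004 of the MPK6 level in the diploid libraries and at 0.492, 0.380 and 0.418 in the tetraploid libraries. In Balilla-2x replicate 3 they were level, and in every tetraploid library MPK3 was below MPK6 by more than in any diploid one. The difference in log2 ratio was -0.94, from -0.29 ± 0.26 to -1.23 ± 0.19 (SD, 3 libraries each). The exact permutation test again gave its floor of p = 0.1 and an adjusted p of 0.133, so it cannot decide on this difference either.

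**Figure D3:**
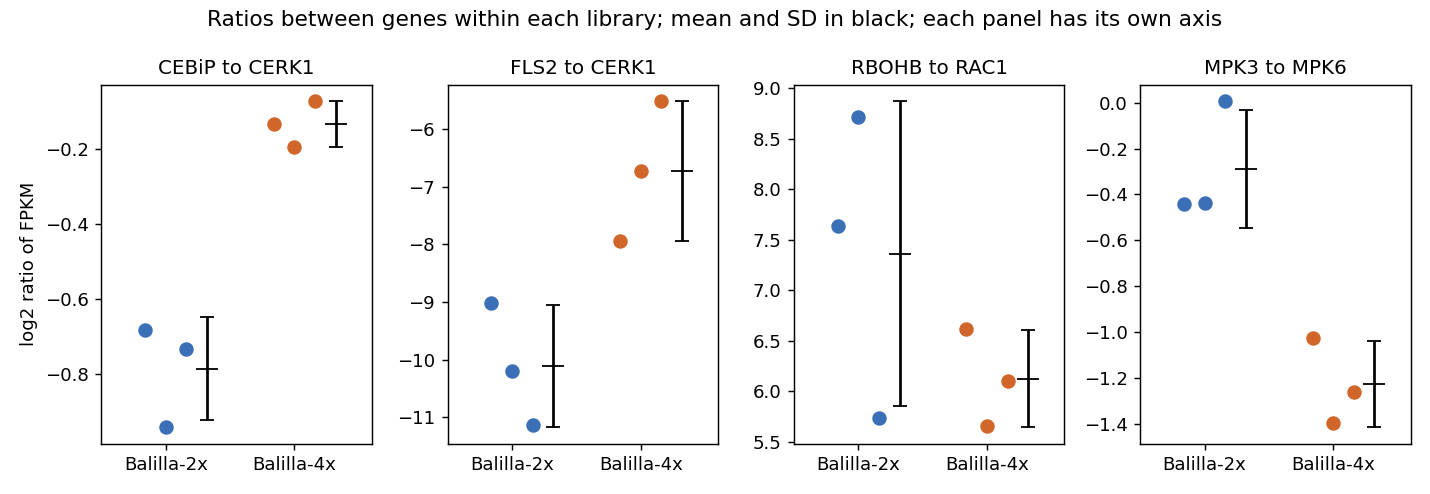
Log2 ratio of FPKM between 2 genes of the set within each library (vertical axes, which differ between panels), for Balilla-2x (blue) and Balilla-4x (orange), with means and SD in black. The lines do not overlap for CEBiP to CERK1, FLS2 to CERK1 and MPK3 to MPK6, with differences of 0.65, 3.38 and -0.94, and they overlap for RBOHB to RAC1.

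Set side by side per length, the genes were spaced differently in the lines. In Balilla-2x, 6 genes lay in a narrow band from CERK1 at 33.2 ± 1.76 FPKM through MPK6 (30.5 ± 2.92), RBOHB (27.3 ± 6.35), MPK3 (25.0 ± 3.14) and MKK4 (22.2 ± 2.06) to CEBiP at 19.4 ± 2.64 FPKM (SD, n = 3). Each neighbour in that order differed from the next by less than their combined SD. The ends of the band were nevertheless apart, since CEBiP stood at 0.624, 0.521 and 0.602 of the CERK1 level in the diploid libraries. RAC1 (0.207 ± 0.164 FPKM) and FLS2 lay far below.

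In Balilla-4x the band was spread out. RBOHB led at 73.6 ± 11.8 FPKM, followed by CERK1 (35.9 ± 3.71) and CEBiP (32.8 ± 3.12), and then by MPK6 (22.1 ± 1.67), MKK4 (12.7 ± 2.41) and MPK3 (9.55 ± 1.95) (SD, n = 3). Of these neighbours, CERK1 and CEBiP differed by less than their combined SD, and MKK4 and MPK3 by 3.15 FPKM against a combined SD of 3.10. RAC1 reached 1.13 ± 0.495 FPKM and FLS2 stayed last. The 3 kinases of the cascade together summed to 80.6, 71.9 and 80.7 FPKM in Balilla-2x and to 48.6, 44.8 and 39.6 FPKM in Balilla-4x. CEBiP and CERK1 together gave 57.3, 48.8 and 51.8 FPKM in Balilla-2x and 76.2, 66.5 and 63.4 FPKM in Balilla-4x. The kinase sum exceeded that of the chitin receptors in every diploid library, and fell below it in every tetraploid one. It holds more genes than the receptor sum, so which of them is larger depends on that choice. These sums were formed after the values had been seen and are given with no test.

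**Figure D4:**
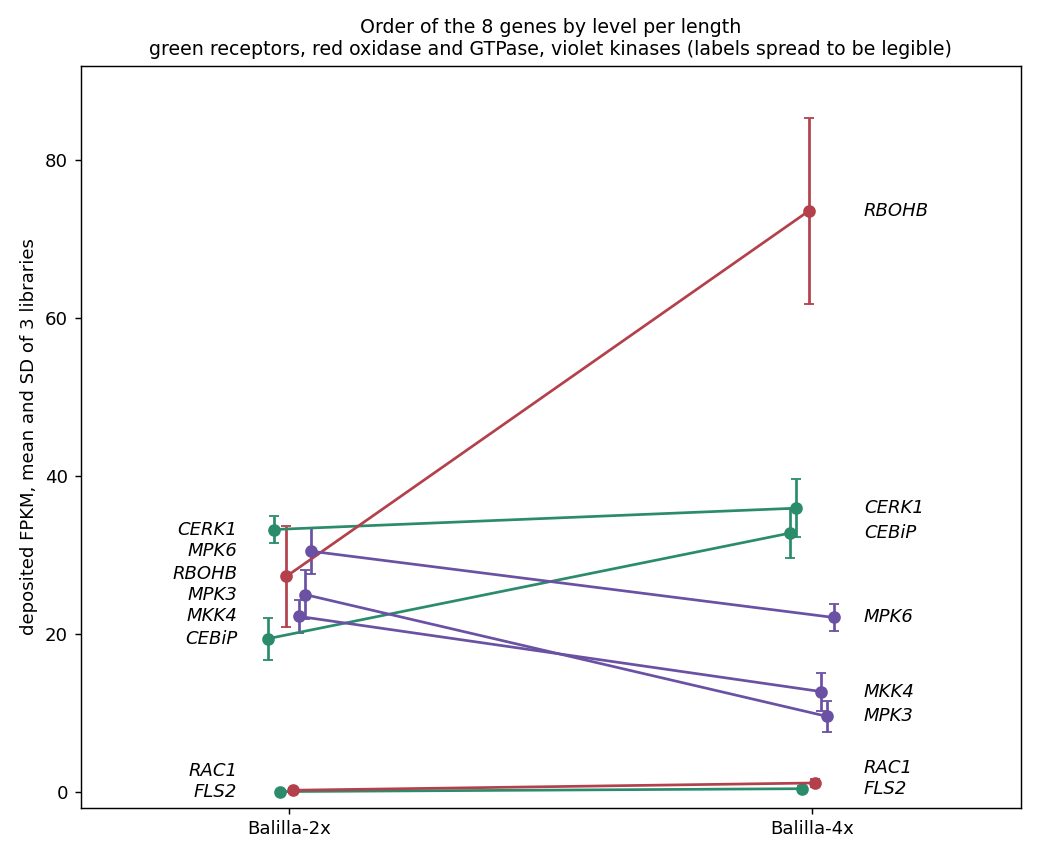
Mean deposited FPKM with SD of 3 libraries (vertical axis, linear) of each of the 8 genes in Balilla-2x (left) and Balilla-4x (right), with receptors in green, the oxidase and GTPase in red and kinases in violet. The 6 genes between 19.4 and 33.2 FPKM in the diploid fan out in the tetraploid from 9.55 FPKM (MPK3) to 73.6 FPKM (RBOHB).

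Since fold changes in these libraries differ with expression level, each gene was also placed among the genes of its own level, the tested genes being divided into 5 classes of equal size. RBOHB stood at or above 95.1% of tested genes in level, and in its class, where the median log2 fold change was -0.11, 2.62% of genes had a change as large in either direction. For MPK3, in the middle class with a median of 0.01, that share was 3.79%. The shares were 7.65% for MKK4 and 11.7% for CEBiP, both in a class with a median of -0.07, and 18.3% for MPK6 and 88.3% for CERK1 in the class of RBOHB.

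The low genes stood in a class that was shifted as a whole. FLS2 and RAC1 belonged to the lowest class, at percentiles 1.54 and 5.38 of level, where the median log2 fold change was 0.36 and 23.3% of genes were called with at least a 2-fold change. In that class 6.87% of genes changed as much as FLS2 and 11.5% as much as RAC1. Both were also more variable within lines than most of their class, at percentiles 85.9 and 82.2 of the within-line SD. RBOHB was the most variable of the well-read genes, at percentile 92.1 of its class with a within-line SD of 0.31 against a class median of 0.13 (log2). The shares and percentiles describe these libraries and are no test.

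The 8 genes lie on 6 chromosomes, with RBOHB and RAC1 on chromosome 1 and CEBiP and MPK3 on chromosome 3, and each was set beside the 5 tested genes on either side of it. Of these 80 neighbours 9 (11.25%) were called higher and 14 (17.5%) lower, beside 12.4% and 13.7% of all tested genes. Around RBOHB, 0 of 10 neighbours were called higher and 1 lower, with a median log2 fold change of -0.04. Around MPK3, 2 were called higher and 2 lower, with a median of -0.21. Around FLS2, 1 was called higher and 3 lower, with a median of -0.14. The largest share of called neighbours was 5 of 10, around CERK1, the gene that was itself not called. No gene of the set thus lay in a stretch of neighbours that mostly changed in its own direction.

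Genes with the pattern most like that of the member with the largest rise and the largest fall were sought by the mean absolute difference of log2 CPM over the 6 libraries, each gene centred on its own mean. Nearest to MPK3 were LOC_Os06g05700, at a difference of 0.05 with means of 284 ± 50.4 CPM in the diploid and 109 ± 22.2 CPM in the tetraploid, and LOC_Os08g32120, also at 0.05, with 179 ± 23.2 and 67.9 ± 12.1 CPM (SD, n = 3 per line). Nearest to FLS2 were LOC_Os12g13730 and LOC_Os09g38510, at the larger differences of 0.26 and 0.27, which are also genes of few counts. The files give no names for these 4. Among the members themselves, MKK4 and MPK6 were the most alike pair, at 0.22, followed by CERK1 and MPK6 and by MKK4 and MPK3, both at 0.29. FLS2 and MPK3 were the least alike, at 2.00. Between members this measure mostly follows the difference between their fold changes, and CERK1 was not called while MPK6 was.

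**Figure D5:**
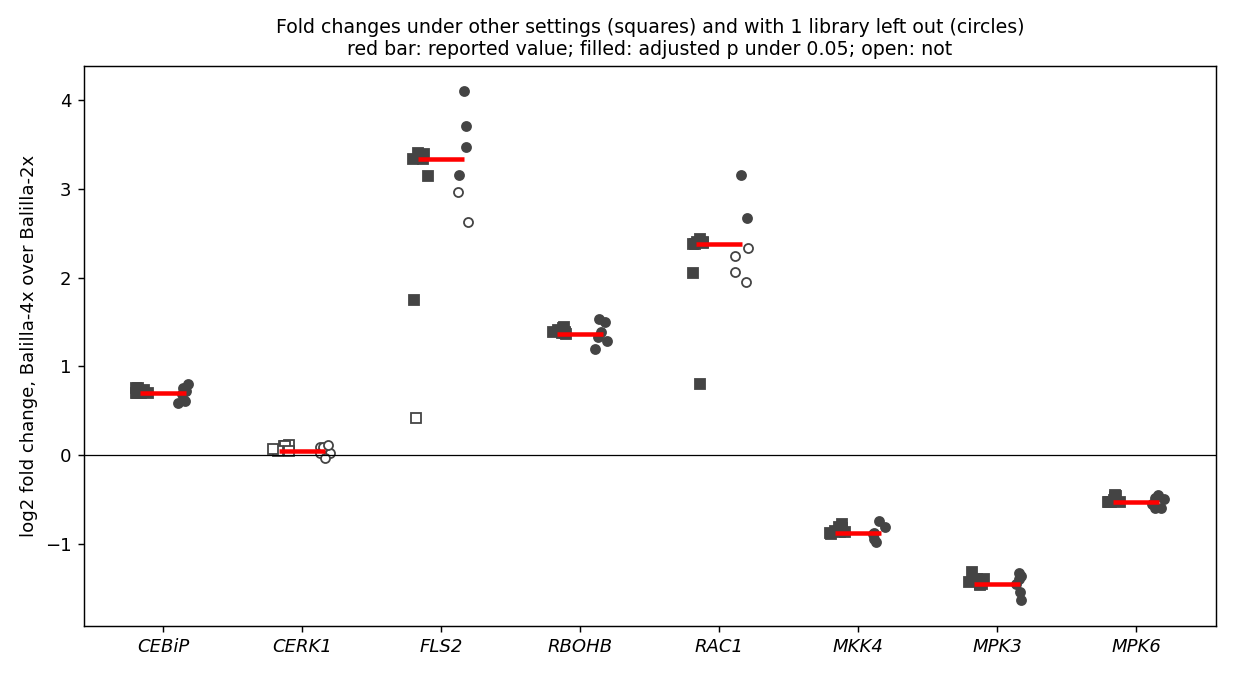
Log2 fold change of each gene (vertical axis) as reported (red bars), under other normalizations, tests and filters (squares) and with 1 library left out (circles), filled where the adjusted p was under 0.05. CEBiP, RBOHB, MKK4, MPK3 and MPK6 keep tight ranges with filled symbols throughout, CERK1 stays near 0 and open, and FLS2 and RAC1 spread widely with some open symbols.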

How the data were processed

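RNA of rice leaves was sequenced in 6 libraries, 3 per line. Per the labels' protocols, total RNA was taken with Trizol and libraries were made with an Illumina TruSeq kit. The submitters' processing notes name HISAT2 2.1.0, an aligner. Which program counted the reads, on which build and annotation and with which strand setting, is not given in the sources used here, so reads shared with similar copies or antisense genes make single values uncertain. The authors deposited raw read counts per gene and, per the file headers, FPKM values for each library. The gene length implied by count, FPKM and library total was whole within 0.01 in 100% of nonzero values, so both tables hold the same measurement.

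Counts were tested in R 4.3.3 with edgeR 4.0.16 (filterByExpr, TMM, quasi-likelihood F test, two-sided, Benjamini-Hochberg over 20976 genes). The SE is the log2 fold change divided by the square root of F, and intervals use the F test's degrees of freedom. Ratios of FPKM were compared by exact permutation over libraries. Alternatives were the RLE and library-total scalings, DESeq2 1.42.0, limma 3.58.1 on log2 of FPKM plus 1 or 0.1, other filters, the replicate number as a block and each library left out. The edgeR, DESeq2 and limma fits were tested on counts simulated with known changes, and the other steps were not. That simulation changed few genes, equally up and down, and gave limma levels without gene length. It therefore did not test the scaling where many genes differ, as they do here.

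Correlations of log2 CPM (prior count 2) across genes were 0.971 to 0.984 within and 0.886 to 0.922 between lines, and no library repeated another (chi-square per degree of freedom at least 8.83 within lines). Of 39387 RefSeq genes (ASM3414082v1) 0 matched the files' identifiers, so further pathway genes and tissue markers were not analysed here, and no sequences were used. The members and lists were chosen with earlier results of these data known. All 8 members are described, and by rule the 2 genes nearest in pattern to the called member with the largest rise and to that with the largest fall.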

Additional observations from a re-analysis of the deposited data

How the results depend on the processing

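Of 111 alternative fits of single members, 103 kept direction and call. CEBiP, RBOHB, MKK4, MPK3 and MPK6 did so in all 14 each. FLS2 was not called with limma on log2 of FPKM plus 1 (0.42, adjusted p = 0.0858), where the added value shrinks low genes, and was not tested under the filter of 1 CPM in 3 libraries. With a library left out its log2 fold change ran from 2.62 to 4.09, that of RAC1 from 1.95 to 3.15 and that of CERK1 from -0.030 (without Balilla-4x replicate 1) to 0.11. The members called numbered 5 to 7, with 5 without Balilla-4x replicate 3. All changed genes numbered 5481 as reported and 3029 to 6600 with a library left out. They fell to 3269 without Balilla-2x replicate 3, to 3029 without Balilla-4x replicate 2 and to 3306 without Balilla-4x replicate 3. They rose to 6600 without Balilla-4x replicate 1. Genes changed at least 2-fold numbered 2459, and 1585 with limma on FPKM plus 1. The cause of these shifts was not tested. Library totals moved the median of all genes to 0.07 from 0.01 (log2). The FLS2 to CERK1 difference fell to 1.64 with 0.1 added to FPKM and that of RBOHB to RAC1 came to -0.61, and the latter ran from -2.05 to -0.56 with a library left out. All 4 ratios kept their direction.

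Libraries that share a replicate number did not deviate together from the means of their lines (correlations across genes of 0.0019, -0.02 and -0.04), so the number gives no pairing. With the replicate block, 4617 genes and 7 members were called, and the log2 fold changes of MPK3 and RBOHB were -1.45 and 1.39. For FLS2 and RAC1, counting depth limits what can be read.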
